A study of Mus musculus with 144 samples.

Results

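The response of primary mouse hepatocytes to 12 h of TCDD (2,3,7,8-tetrachlorodibenzo-p-dioxin) was examined by RNA-Seq. The comparison took every library labelled with a duration of 12 h, which gave 8 libraries treated with 10 nM TCDD and 8 treated with DMSO vehicle, 1 of the 9 time points, each with 16 libraries, of a time course from 2 to 120 h. Each treatment held 4 libraries labelled wild-type (WT, strain C57BL/6NCrl) and 4 labelled DRE-null (strain Pkm-delta-DRE, written PkmΔDRE here), all from male mice labelled with an age of 28 days. In the PkmΔDRE line a short dioxin response element (DRE) motif in an intron of Pkm, the gene of pyruvate kinase M, had been removed by CRISPR-Cas9 and the founders were backcrossed to C57BL/6N. Hepatocytes of all 4 groups were obtained by collagenase perfusion, plated on type I collagen and given serum-free Williams E medium with insulin-transferrin-selenium, ascorbic acid and dexamethasone together with TCDD or DMSO. The labels and the protocol text differ on the plate format and seeding density. Nothing in the labels ties a library to an animal or a separate culture, so p-values measure only the spread between these libraries, which may be technical. Libraries are named below by group and replicate, numbered from 1 to 4 in accession order.

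TCDD is a ligand of the aryl hydrocarbon receptor (AHR), which waits in the cytosol with chaperones until a ligand binds it. The receptor then enters the nucleus, pairs with ARNT and binds DREs, whose invariant core is GCGTG, near genes such as Cyp1a1, Cyp1a2 and Nqo1. In liver, AHR is best known for inducing enzymes of foreign compound metabolism, and its targets also include its own repressors Ahrr and Tiparp.

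The 16 libraries held 15491968 to 24358209 read pairs counted on genes, with a median of 17549028. The first principal component took 38.4% of the variance and did not follow treatment: PkmΔDRE TCDD replicates 1 and 3 lay at 1 end with scores of 83.1 and 90.8, and PkmΔDRE vehicle replicate 2 and PkmΔDRE TCDD replicate 2 at the other with -88.9 and -71.8. The latter pair also had the highest shares of uniquely mapped pairs on no gene, 9.79% and 9.62%. The second component, with 16.3%, separated the genotype labels. The genotype labels could not be checked, so they are to be read with caution, and whether they are right was not tested. The log2 fold change of Pkm under TCDD was 1.68 in libraries labelled PkmΔDRE and 0.17 in those labelled WT. Neither value nor their difference passed the test. The summed level of 12 hepatocyte markers was 57710 to 101200 CPM (counts scaled to library size) in vehicle and 58470 to 112600 in TCDD libraries. All 13 blood cell markers averaged under 1 CPM in both treatments. The summed levels of Kupffer cell, endothelial and cholangiocyte markers overlapped between treatments. The summed level of 12 stellate cell and fibroblast markers was 41.8 to 58.5 CPM in vehicle and 61.9 to 94.2 CPM in TCDD libraries, without overlap. Of these 12, 8 averaged under 1 CPM in vehicle and 9 in TCDD libraries, so the sum rested on few genes. Among the 7 members with enough counts none passed the test, and 4 were above 0. Reln had the highest log2 fold change, 1.10 (SE 0.28, edgeR adjusted p = 0.220), and Hgf the lowest, -1.497. Acta2, Lrat, Col1a1, Col1a2 and Des had too few counts to test. The part of these cells in the results below was not tested, and in bulk RNA fewer cells of a type and less RNA per cell cannot be told apart.

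Promoter sequences of 5 induced genes are shown to place the DRE core beside the measurements: the 3 members of the CYP1 family, and Selenbp1 and Pik3ap1 as induced genes with more than 1 match. Each is the 250 bases before the annotated start, 5′ to 3′ on the strand of the gene, from RefSeq on GRCm38.p6, and capitals mark GCGTG or its reverse complement CACGC. The Cyp1a1 window lies at chr9:57697363-57697612 on the plus strand, Cyp1a2 at chr9:57683656-57683905 on the minus strand, Cyp1b1 at chr17:79715062-79715311 on the minus strand, Selenbp1 at chr3:94932833-94933082 on the plus strand and Pik3ap1 at chr19:41385103-41385352 on the minus strand.
Cyp1a1: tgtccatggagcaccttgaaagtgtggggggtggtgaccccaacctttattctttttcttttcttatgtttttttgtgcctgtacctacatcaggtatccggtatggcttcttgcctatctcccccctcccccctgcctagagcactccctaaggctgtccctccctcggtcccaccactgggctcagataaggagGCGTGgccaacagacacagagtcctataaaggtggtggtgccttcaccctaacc
Cyp1a2: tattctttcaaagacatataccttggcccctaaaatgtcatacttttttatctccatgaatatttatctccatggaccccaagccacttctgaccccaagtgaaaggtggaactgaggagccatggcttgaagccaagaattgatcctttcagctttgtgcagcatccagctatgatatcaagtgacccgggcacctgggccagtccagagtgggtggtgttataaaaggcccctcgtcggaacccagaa
Cyp1b1: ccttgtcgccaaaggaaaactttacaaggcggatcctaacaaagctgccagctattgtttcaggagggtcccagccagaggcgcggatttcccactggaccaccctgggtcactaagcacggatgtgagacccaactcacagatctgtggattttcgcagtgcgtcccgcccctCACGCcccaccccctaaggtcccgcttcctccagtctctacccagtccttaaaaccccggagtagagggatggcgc
Selenbp1: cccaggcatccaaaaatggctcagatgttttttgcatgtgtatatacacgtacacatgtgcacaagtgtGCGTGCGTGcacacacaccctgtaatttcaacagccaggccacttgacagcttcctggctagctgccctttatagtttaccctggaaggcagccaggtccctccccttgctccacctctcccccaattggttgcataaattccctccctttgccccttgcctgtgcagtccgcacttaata
Pik3ap1: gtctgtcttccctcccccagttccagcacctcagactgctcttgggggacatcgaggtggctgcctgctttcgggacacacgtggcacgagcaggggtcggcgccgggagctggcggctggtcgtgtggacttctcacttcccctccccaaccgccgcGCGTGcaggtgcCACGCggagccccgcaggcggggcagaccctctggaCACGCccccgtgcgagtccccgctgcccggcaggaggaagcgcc
In these windows the core stood at -54 in Cyp1a1, -76 in Cyp1b1, -181 and -177 in Selenbp1, where the matches overlap by a base, and -92, -80 and -44 in Pik3ap1, counting the base before the start as -1. The Cyp1a2 window held no match. RefSeq windows were at hand for 20 of the 28 named induced genes described below, and 12 of these genes held the core in at least 1 window. Counted by window, 13 of their 22 windows held it, beside 28.2% of all 32851 windows of this length. No window was at hand for Rab30, Dclk3, Xdh, Lrp4, Arl6ip5, Insl6, Nrg1 and Lefty1. The 8 genes with a window and no match included Nqo1, Nr1i3, Ugt1a7c and Slc46a3. A match of these letters is a description and not evidence of AHR binding.

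Of 13469 genes tested across both labels, 29 rose by at least 1.5-fold at an adjusted p under 0.05 (0.215%), and 0 fell, by edgeR's quasi-likelihood test with the genotype label as a covariate. At an unadjusted p under 0.05 the same test gave 484 genes, 235 higher and 249 lower, and DESeq2 called 66 genes higher and 6 lower. The 29 comprised 28 named genes and a clone transcript, 4931440P22Rik (log2 fold change 2.25), which lies antisense to Tiparp and shares 5.0% of its exon bases with it; reads from those bases cannot be assigned to either gene in unstranded counts. Among the 28, log2 fold changes ran from 0.70 for Nrg1 to 9.92 for Cyp1a1, with 12 genes at 2 or more, 14 between 1 and 2 and 2 below 1. For 11 of the 28 every TCDD library lay above every vehicle library, beside 0.111% of all genes (0.104% higher and 0.00742% lower). Within each label the treatments did not overlap for 20 of the 28, beside 0.223% of all genes (0.186% higher and 0.0371% lower). The 11 separated over all libraries were Cyp1a1, Cyp1a2, Rab30, Dclk3, Xdh, Selenbp1, Lrp4, Tnfaip2, Nr1i3, Insl6 and Nrg1. The genes just inside the threshold were Pmm1 (adjusted p = 0.0481), Cyp1b1 and Mgll (each 0.0439), and those just outside it were Gm19619 and Ripply1 (each 0.0535, by edgeR).

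**Figure D1:**
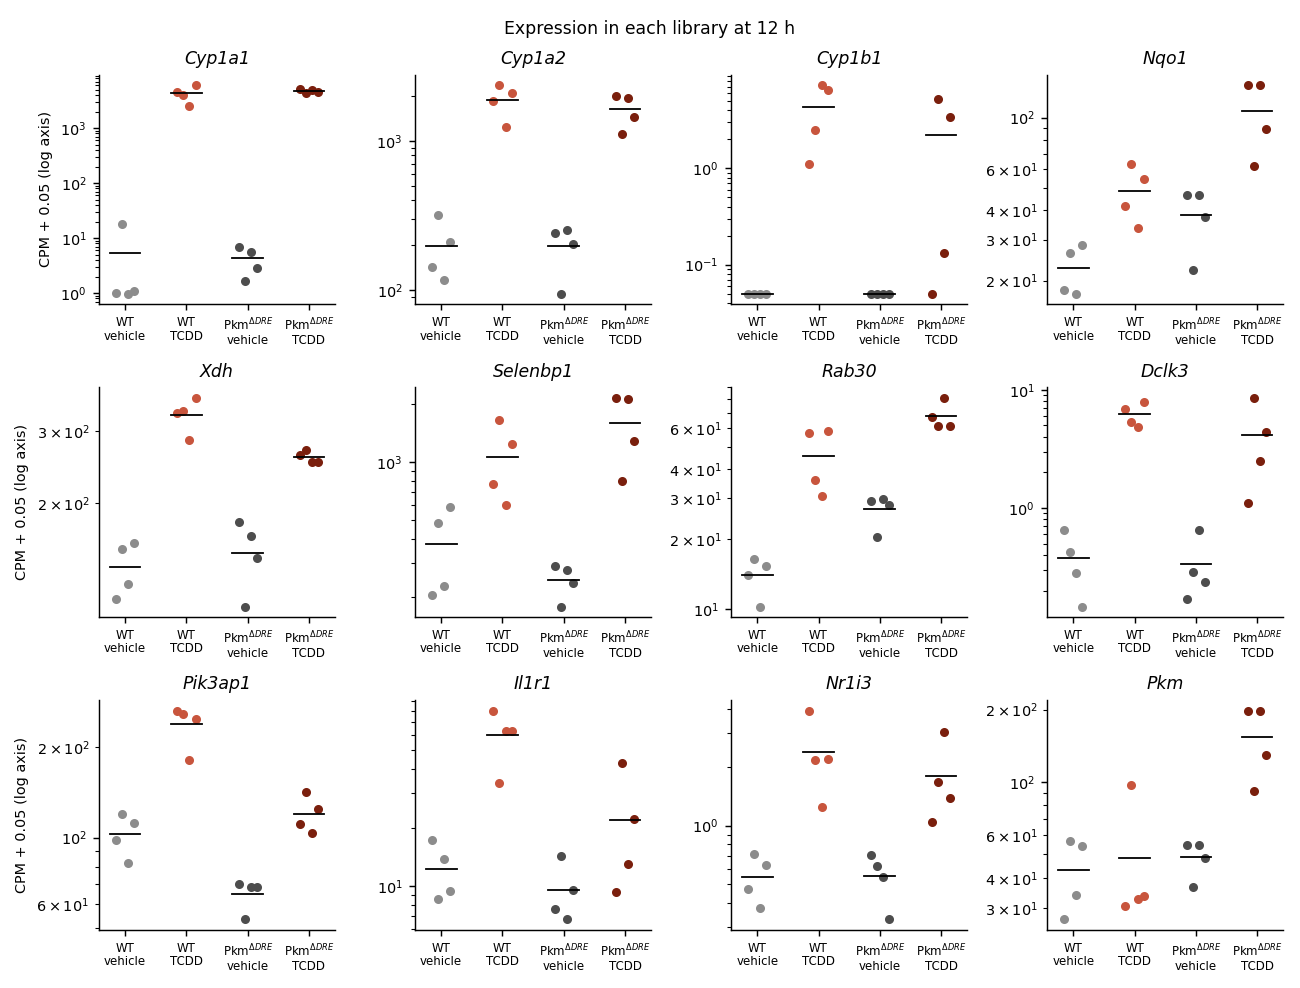
Each panel plots 1 gene, with 4 libraries per group as points in the order of their numbers, horizontal lines at group means and a logarithmic axis of CPM + 0.05. Cyp1a1 was 0.928 to 18.1 CPM in vehicle and 2525 to 6092 CPM in TCDD libraries, and the last panel shows Pkm, which was not called.

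The CYP1 family, whose members oxidise polycyclic aromatic compounds, held the largest response, that of Cyp1a1. Cyp1a1 was at 0.928 CPM in the lowest vehicle library, 2.23 at the median and 18.1 in the highest, against 2525, 4539 and 6092 CPM in TCDD libraries. No library of one treatment came near the other, although WT vehicle replicate 2 stood alone at 18.1 CPM while the other 3 WT vehicle libraries lay between 0.928 and 1.06. The log2 fold change was 9.92 (SE 0.72, edgeR adjusted p = 9.57e-07), and 10.94 without that replicate. Cyp1a2, the isozyme that hepatocytes express without a ligand, ran from 94.4 through a median of 205 to 316 CPM in vehicle and from 1118 through 1895 to 2371 CPM in TCDD libraries, again without overlap, a log2 fold change of 3.17 (SE 0.25, adjusted p = 1.56e-06). Cyp1b1 had no read in any of the 8 vehicle libraries. In TCDD libraries it ranged from 0 through a median of 2.89 to 7.23 CPM, with PkmΔDRE TCDD replicate 1 at 0 and replicate 3 at 0.0808 CPM, while the other 6 lay at 1.05 CPM or more. Against a floor of 3 counts per library, 0.154 CPM, the TCDD mean of 3.23 ± 2.83 CPM (SD, n = 8) was at least 21.01-fold higher (adjusted p = 0.0439). The call did not survive 13 of the 16 omissions of a single library.

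The list of known AHR target genes, which includes Cyp1a1, Cyp1a2 and Cyp1b1, held 13 tested members of 15, and all 13 had a log2 fold change above 0. Of these 5 were called higher and 0 lower, the 3 CYP1 genes together with Nqo1 and Xdh. The median log2 fold change of the 13, the CYP1 genes included, was 1.31, beside 0.01 over all genes. Nqo1, a quinone reductase, ran from 17.5 through 27.2 to 46.7 CPM in vehicle and from 33.5 through 62.6 to 138.1 CPM in TCDD libraries. The treatments overlapped over all libraries but not within a label, and PkmΔDRE TCDD replicates 1 and 3 were the highest at 138.1 CPM each. The log2 fold change was 1.31 (SE 0.21, adjusted p = 0.00545). Xdh, which encodes xanthine dehydrogenase of purine breakdown, was at 111.3 to 178.9 CPM in vehicle and at 251 to 362 CPM in TCDD libraries, without overlap, a log2 fold change of 1.02 (SE 0.13, adjusted p = 0.000464).

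Ugt1a7c, a UDP-glucuronosyltransferase, was at 0 in 4 vehicle libraries and at most 0.325 CPM in the others, against 0.323 to 3.95 CPM in TCDD libraries (log2 fold change 4.07, SE 0.70, adjusted p = 0.0114). Its exons share 54.6% of their bases with other Ugt1a genes and Gm20528, so that its value is uncertain. Ugt1a6a, of the same cluster, had a log2 fold change of 3.34 (SE 0.70) that missed the threshold at an adjusted p of 0.0579; it passed without PkmΔDRE TCDD replicate 1 (0.034) and with DESeq2 (9.47e-05). Neither repressor of AHR passed by edgeR with all libraries, and both passed with DESeq2, Tiparp at an adjusted p of 0.00225 and Ahrr at 0.00185. Tiparp, an ADP-ribosyltransferase that limits AHR signalling, ran from 3.13 through 11.6 to 38.6 CPM in vehicle and from 19.9 through 41.9 to 91.8 CPM under TCDD, a log2 fold change of 1.77 (SE 0.42, adjusted p = 0.151). PkmΔDRE vehicle replicate 2 was the highest of its treatment at 38.6 CPM and lay above 4 TCDD libraries, and without it Tiparp passed (edgeR adjusted p = 0.0325). Ahrr, the AHR repressor, was at 0 in 4 vehicle libraries and in PkmΔDRE TCDD replicate 1, and at 0.552 to 3.12 CPM in the other 7 TCDD libraries (log2 fold change 3.74, SE 0.85, adjusted p = 0.102). Without that TCDD replicate Ahrr passed, at an edgeR adjusted p of 0.0258.

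The remaining members of that list had smaller differences that did not pass in the main model. Nfe2l2, which encodes the antioxidant transcription factor NRF2, had a log2 fold change of 0.77 (SE 0.23, edgeR adjusted p = 0.469). It stayed uncalled in 7 of 9 other processing settings. Ugt1a6b had 0.46, Ugdh 0.41, Lekr1 0.41 and Gsta1 0.28. Aldh3a1 and Cyp2s1 were at or under 0.409 CPM in every library and were not tested. The receptor complex itself, with 10 tested members that include Ahr, Arnt and the Hsp90 chaperones, held 0 calls by edgeR, 0 members at an unadjusted p under 0.05, and a median log2 fold change of 0.05. Ahr was at -0.41 (SE 0.25) and Arnt at -0.23 (SE 0.15).

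A list of 11 further genes that the study or an earlier analysis of these data had picked held 10 tested members, all above 0 with a median of 0.94. Of these Selenbp1, Dclk3 and Pmm1 were called. Cbr3, a carbonyl reductase, at 1.28 (SE 0.35, edgeR adjusted p = 0.329), was not, and it stayed uncalled in 5 of 9 other processing settings. The list was chosen on these samples and is not independent evidence of its direction.

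Several called genes belong to metabolism and transport. Selenbp1, a selenium-binding methanethiol oxidase, ran from 178 through 256 to 587 CPM in vehicle and from 604 through 1263 to 2161 CPM in TCDD libraries. All TCDD libraries lay above all vehicle libraries, with PkmΔDRE TCDD replicates 1 and 3 on top at 2161 and 2136 CPM, and the log2 fold change was 2.12 (SE 0.32, adjusted p = 0.00470). Slc46a3, a lysosomal transporter, was at 7.01 to 25.7 CPM in vehicle and at 18.2 to 89 CPM under TCDD, the lowest treated library being WT TCDD replicate 3 (log2 fold change 1.78, SE 0.27, adjusted p = 0.00535). Mgll, which encodes monoacylglycerol lipase, had a log2 fold change of 1.11 (SE 0.22), with WT vehicle replicate 4 at 99.9 CPM above 4 TCDD libraries. Pmm1, a phosphomannomutase, had 1.34 (SE 0.27), with PkmΔDRE TCDD replicates 1 and 3 at 164 and 185 CPM and the other 6 TCDD libraries at 45.96 to 92.8 CPM. Arl6ip5, a membrane protein of the endoplasmic reticulum, rose by a log2 fold change of 1.04 (SE 0.19).

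Signalling and trafficking genes were a further group. Rab30, a small GTPase of the Golgi, was at 10.2 through 18.4 to 29.7 CPM in vehicle and at 30.7 through 59.9 to 81.1 CPM under TCDD, without overlap (log2 fold change 1.53, SE 0.17, adjusted p = 0.000160). Dclk3, a doublecortin-like kinase, ran from 0.0965 through 0.235 to 0.601 CPM in vehicle and from 1.06 through 5.03 to 8.49 CPM under TCDD, with PkmΔDRE TCDD replicates 1 and 3 the lowest of the treated (log2 fold change 4.05, SE 0.45, adjusted p = 0.000190). Pik3ap1, an adaptor of phosphoinositide kinase signalling whose promoter is shown above, was higher in WT than in PkmΔDRE libraries under both treatments. Within WT it ran from 81.95 to 119.4 CPM in vehicle and from 182 to 264 CPM under TCDD, and within PkmΔDRE from 53.4 to 69.9 and from 103.3 to 141.4 CPM, without overlap in either label (log2 fold change 1.06, SE 0.13, adjusted p = 0.000461).

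Lrp4, a receptor of the LDL receptor family, was at 7.27 to 14.2 CPM in vehicle and at 15.03 to 41.8 CPM under TCDD, a log2 fold change of 1.26 (SE 0.19). Tnfaip2, a gene inducible by tumour necrosis factor, was at 2.27 to 5.16 CPM in vehicle and at 5.20 to 15.2 CPM under TCDD, a log2 fold change of 1.43 (SE 0.22). Il1r1, the interleukin receptor, ran from 6.67 through 9.42 to 17.3 CPM in vehicle and from 9.27 through 38.6 to 80.02 CPM under TCDD. Its 2 lowest TCDD libraries were PkmΔDRE TCDD replicates 1 and 3 at 9.27 and 12.9 CPM, within the vehicle range (log2 fold change 1.76, SE 0.34, adjusted p = 0.0338). Unc5b, a netrin receptor, had a log2 fold change of 0.76 (SE 0.13), and Nrg1, a ligand of ErbB receptors, 0.70 (SE 0.13). The secreted factors Insl6, of the relaxin family, and Lefty1, an inhibitor of Nodal, had 2.83 (SE 0.51) and 2.11 (SE 0.41), and Gas1, a membrane protein of Hedgehog signalling, had 2.25 (SE 0.35). Insl6 was at or under 0.434 CPM in vehicle libraries and at or under 2.05 CPM in TCDD libraries, close to the limit of counting. Gas1 shares 19.9% of its exon bases with Gm48488, and Tnfaip2, Nrg1, Fbxw9, Mgll and Fam129b share 0.8 to 6.4% of theirs with genes of the opposite strand, which adds uncertainty to their unstranded counts.

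A pair of called genes encode transcription factors. Atoh8, a basic helix-loop-helix factor, ran from 0.950 through 1.09 to 3.12 CPM in vehicle and from 2.92 through 6.08 to 10.2 CPM under TCDD (log2 fold change 2.24, SE 0.30, adjusted p = 0.00155). The ranges met only through WT vehicle replicate 2 and PkmΔDRE TCDD replicate 2. Nr1i3, the constitutive androstane receptor CAR, another sensor of foreign compounds, ran from 0.279 through 0.531 to 0.661 CPM in vehicle and from 0.993 through 1.88 to 3.85 CPM under TCDD (log2 fold change 2.02, SE 0.34, adjusted p = 0.00941). Of its exon bases 74.9% are shared with Tomm40l on the opposite strand, so that its value is uncertain in unstranded counts. Of the remaining called genes, Gsdme, a pore-forming gasdermin, had a log2 fold change of 1.33 (SE 0.19), Fbxw9, an F-box protein, 1.20 (SE 0.23), Fam129b, now named Niban2, 1.19 (SE 0.20), and Col9a2, a chain of collagen IX with at most 2.46 CPM in any library, 3.74 (SE 0.73).

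Leaving out PkmΔDRE TCDD replicates 1 and 3 gave 35 calls, 33 higher and 2 lower, and kept 24 of the 28 named genes. Leaving out PkmΔDRE vehicle replicate 2 and PkmΔDRE TCDD replicate 2 gave 26 calls and kept 22 of the 28. Of the 28, 17 kept the call in each of the 16 fits without 1 library, and the 8 genes called at the least margin, Nrg1, Il1r1, Fbxw9, Col9a2, Lefty1, Mgll, Cyp1b1 and Pmm1, each lost it in 11 or more. Arl6ip5 and Insl6 each lost it in 7 of the 16 fits, and Fam129b in 2.

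**Figure D2:**
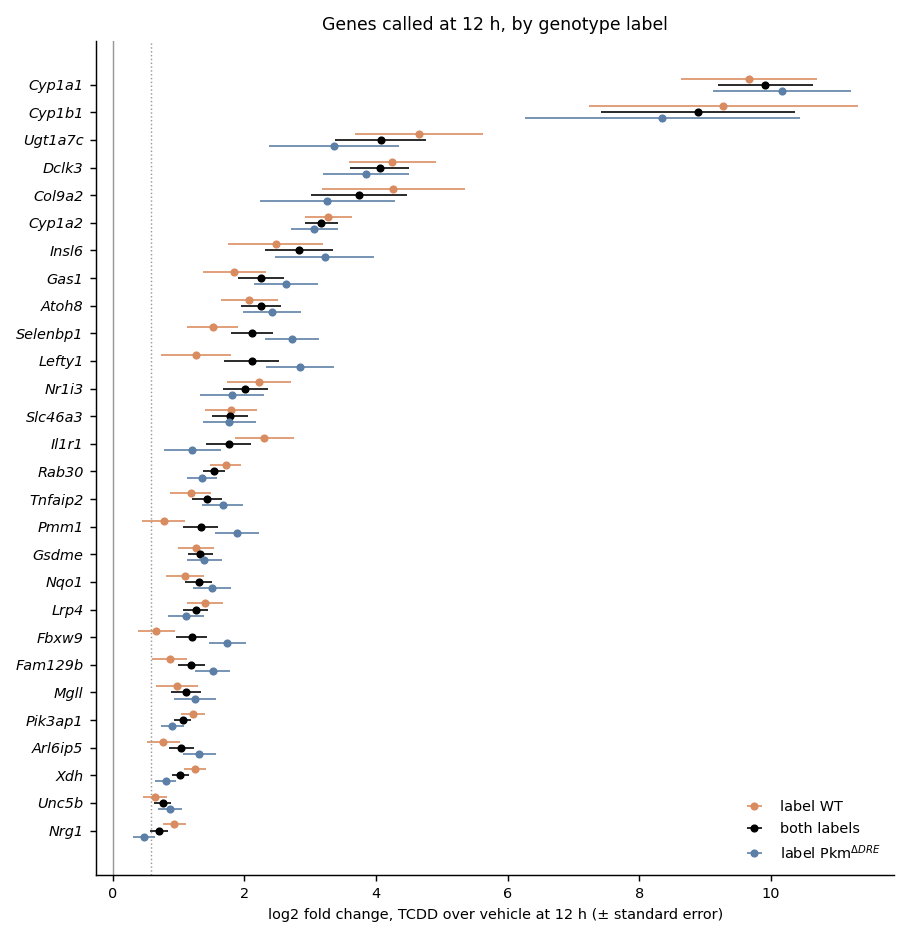
The log2 fold change of TCDD over vehicle is shown for the 28 named genes with its standard error, for both labels together (black), label WT (orange, above) and label PkmΔDRE (blue, below), with solid and dotted vertical lines at 0 and at the 1.5-fold threshold. All 28 lay above 0 within each label. The genes were chosen by the pooled call on these same libraries, so their sign within a label is not a separate result.

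The libraries labelled WT and PkmΔDRE were then compared. The label goes together with the mouse line, and nothing ties a library to an animal or a separate culture. A difference between labels therefore cannot be assigned to the Pkm element. Pkm itself was at 26.8, 56.8, 33.8 and 54.3 CPM in the WT vehicle libraries and at 30.4, 97.4, 32.5 and 33.5 CPM in the WT TCDD libraries. It was at 54.9, 36.6, 54.4 and 48.5 CPM in the PkmΔDRE vehicle libraries and at 198, 91.4, 198 and 130 CPM in the PkmΔDRE TCDD libraries. Within label WT only replicate 2 exceeded the vehicle range, whereas within label PkmΔDRE all 4 TCDD libraries lay above all 4 vehicle libraries. The log2 fold change of Pkm was 0.17 (SE 0.36) in label WT and 1.68 (SE 0.37) in label PkmΔDRE, and the difference of 1.51 (SE 0.51) did not pass the test (edgeR adjusted p = 0.621). Over both labels it was 0.93 (SE 0.32, adjusted p = 0.854). The higher Pkm under TCDD thus lay in the libraries labelled as lacking the element, the reverse of what the labels would lead one to look for. Gene counts do not cover the deleted intronic element, do not separate the isoforms of Pkm and cannot settle whether the labels are right. Each value given for WT or PkmΔDRE therefore holds for the libraries so labelled.

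Within label WT 6 genes were called, all higher (0.0445%), namely Cyp1a1, Cyp1a2, Xdh, Rab30, Pik3ap1 and Dclk3. Within label PkmΔDRE also 6 were called, all higher (0.0445%), namely Cyp1a1, Cyp1a2, Selenbp1, Fbxw9, Rab30 and Dclk3. Cyp1a1 had a log2 fold change of 9.67 (SE 1.03) in WT and 10.17 (SE 1.05) in PkmΔDRE, and Cyp1a2 3.27 (SE 0.36) and 3.07 (SE 0.36). The difference in response between labels passed for 0 of 13469 genes by edgeR, with 977 at an unadjusted p under 0.05 and a smallest adjusted p of 0.621, and for 0 by DESeq2. Among the 28 named genes 4 had an unadjusted p under 0.05 for that difference, all with the larger value in PkmΔDRE. Most of the 977 genes at that unadjusted threshold also had the larger value in PkmΔDRE, so this direction was not particular to the 4. Fbxw9 had 0.66 (SE 0.29) in WT and 1.74 (SE 0.28) in PkmΔDRE, Selenbp1 1.52 and 2.72, Lefty1 1.27 and 2.84, and Pmm1 0.78 and 1.89. PkmΔDRE TCDD replicates 1 and 3 were the highest of all 16 libraries for each of these 4 genes. Without PkmΔDRE TCDD replicate 2 the label PkmΔDRE gave 327 calls, 271 higher and 56 lower, in place of 6, so that a count within that label rested on this library.

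**Figure D3:**
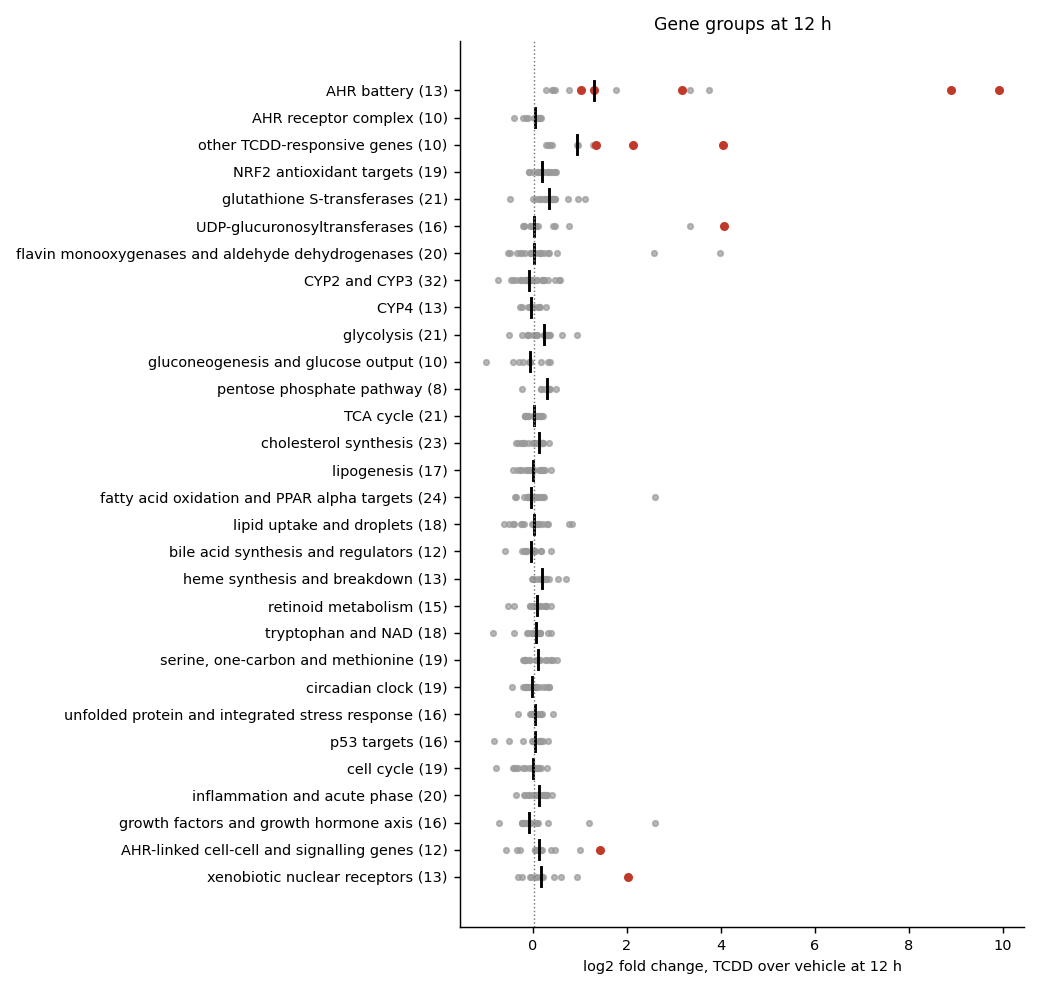
Each point is the log2 fold change at 12 h of a tested member of a gene group, red where called, with a black bar at the group median, the number of tested members in brackets and a dotted line at the median of all genes. The AHR battery had a median of 1.31 and the glutathione S-transferases 0.34.

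The 12 tested genes of AHR-linked cell signalling held 1 call, Tnfaip2, and the 13 of nuclear receptors of foreign compounds held 1, Nr1i3, with medians of 0.12 and 0.18. Apart from the known AHR targets and the list of further genes picked earlier from these data, the other groups held 0 or 1 call each at 12 h. Over all genes tested by edgeR 3.59% had an unadjusted p under 0.05, and the median log2 fold change was 0.01. Of 21 tested glutathione S-transferases, which conjugate electrophiles, 0 were called by edgeR and 4 had an unadjusted p under 0.05, all higher, with 20 above 0 and a median log2 fold change of 0.34. Gstp2 came nearest at 1.10 (SE 0.24, adjusted p = 0.0880), followed by Gstm2 at 0.95 (SE 0.28) and Gstm4 at 0.73 (SE 0.31). The 19 tested NRF2 targets held 0 calls and 2 at an unadjusted p under 0.05, with 17 above 0 and a median of 0.20. Srxn1, sulfiredoxin, was at 0.50 (SE 0.22). PkmΔDRE TCDD replicates 1 and 3 were the highest of all 16 for Gsta2, as they were for Nqo1.

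Of 16 tested UDP-glucuronosyltransferases 1 was called, Ugt1a7c, and the median was 0.03. The 20 flavin monooxygenases and aldehyde dehydrogenases held 0 calls with 4 at an unadjusted p under 0.05. Aldh1a1, a retinal dehydrogenase of that group, was at -0.54 (SE 0.22). The 32 CYP2 and CYP3 genes held 0 calls, 1 gene at an unadjusted p under 0.05, Cyp2a5 at 0.56, and a median of -0.08. Por, the reductase that supplies electrons to these enzymes, was at 0.93 (SE 0.20, adjusted p = 0.0619).

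In central metabolism the 21 glycolysis genes held 0 calls, 16 above 0 and a median log2 fold change of 0.23, the only member at an unadjusted p under 0.05 being Pkm. The 8 pentose phosphate genes had 7 above 0, a median of 0.30 and 1 member at an unadjusted p under 0.05, Pgd at 0.49 (SE 0.23). Of 10 genes of glucose output 3 were above 0, with Ppargc1a, a coactivator of gluconeogenesis, the lowest at -1.001 (SE 0.40, adjusted p = 1). Groups for CYP4 enzymes, the TCA cycle, cholesterol synthesis, lipogenesis, lipid uptake, fatty acid oxidation, bile acids, heme, retinoids, tryptophan, one-carbon metabolism, the circadian clock, the unfolded protein response, p53, the cell cycle, inflammation and growth factors each held 0 calls by edgeR and 0 to 3 members at an unadjusted p under 0.05. Their medians ran from -0.09 to 0.20. Fgf21, a fasting hormone of liver, had the largest value among them, 2.60 (SE 0.68, adjusted p = 0.255). Among genes that leaned downward, none of which passed, Sgk1, a glucocorticoid-regulated kinase, was nearest at -0.71 (SE 0.15, adjusted p = 0.0579), and the p53 target Sesn1 and the tryptophan pathway gene Acmsd were at -0.84 (SE 0.21) and -0.86 (SE 0.21).

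The 12 h response was set beside the other time points, each fitted on its own 16 libraries with its own vehicle. Of the 29 genes of 12 h, 23 of 28 tested were called at 8 h (13.9% of all genes), 16 of 28 at 24 h (0.205%) and 18 of 26 at 120 h (2.96%). At 2 h their median log2 fold change was -0.03, with 9 of 25 above 0. The median was 0.31 at 4 h, with 18 of 25 above 0, and reached 1.04 by 8 h, 1.76 by 12 h and 1.497 by 24 h. The genes were chosen by their 12 h call, so the size of their median at 12 h is not a result.

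Of the 28 named genes 11 were called at every time point from 8 to 120 h, namely Cyp1a2, Xdh, Gsdme, Selenbp1, Lrp4, Slc46a3, Tnfaip2, Nqo1, Ugt1a7c, Il1r1 and Cyp1b1. Others were called early and not late. Rab30 had a log2 fold change of 0.82 at 4 h, was called with 1.56 at 8 h, 1.53 at 12 h and 1.003 at 24 h, and was at 0.37 by 48 h and -0.02 by 120 h. Gas1 was called at 8 and 12 h, had uncalled values of 1.09 (SE 0.78) at 24 h and 2.01 (SE 1.03) at 48 h, and lay at -0.19 at 72 h. Fam129b was called at the same hours, was at 0.99 (SE 0.30) at 24 h without a call, and lay at 0.13 at 48 h and -0.09 at 72 h. Atoh8, Nr1i3 and Lefty1 were called at 12 h and at no other time point. Uncalled values were 1.33 (SE 0.32) for Atoh8 at 24 h and 1.68 (SE 0.39) for Lefty1 at 48 h. Nr1i3 had a larger value at 24 h, 3.30, and had too few counts from 48 h on. A call at 12 h alone therefore does not make the response of these genes particular to that hour.

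Cyp1a1 had log2 fold changes of 2.92 at 2 h and 5.37 at 4 h, which were not called, 10.06 at 8 h and 9.92 at 12 h, while Cyp1a2 went from -0.20 at 2 h through 0.52 and 1.77 to 3.17 at 12 h and 4.08 at 24 h. The change in response from 8 h to 12 h was 1.49 for Cyp1a2 (unadjusted p = 9.64e-05, adjusted p = 0.170), which did not pass. Of 14379 genes tested for a difference between 12 h and 8 h, 1 passed (0.00695%), the nuclear noncoding RNA Neat1, whose response was lower at 12 h by a log2 value of -1.25 (SE 0.22, adjusted p = 0.0412). That count was 0 after adjusting for each library's pairs outside genes, stayed at 1 in 7 of 32 fits without a single library, and was 1529 without PkmΔDRE TCDD replicate 2 of 12 h. Among the 8 h libraries, WT TCDD replicate 1 held 13588848 pairs on genes, the fewest of the time course. It had 23.6% of pairs unmapped and 21.95% of uniquely mapped pairs on no gene. Between 12 h and 24 h 0 of 14652 genes passed by edgeR and 0 by DESeq2, with 185 at an unadjusted p under 0.05. Xdh and Cyp1a2 leaned to a larger response at 24 h, by -0.62 and -0.89 for 12 h minus 24 h, and Rab30 to a smaller one, by 0.56.

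**Figure D4:**
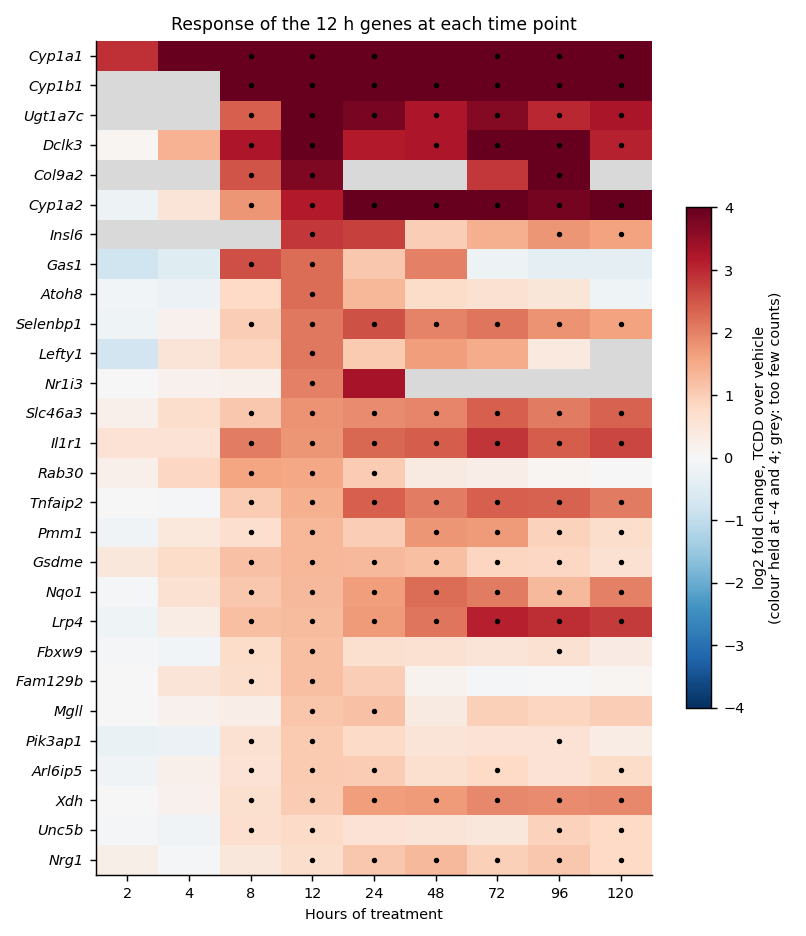
Rows are the 28 named genes ordered by their 12 h value and columns are hours of treatment; colour gives the log2 fold change of TCDD over vehicle, held at -4 and 4, dots mark calls and grey marks too few counts. Cyp1a1 was at 2.92 at 2 h, and Rab30 went from 1.53 at 12 h to 0.37 at 48 h.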

How the data were processed

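Total RNA libraries were made with an Illumina TruSeq kit and sequenced as unstranded paired-end reads. Per the submitters' processing notes and methods, the authors used FastQC, Trimmomatic 0.39 and STAR 2.7 on GRCm39. The deposited values were raw STAR counts of read pairs per gene; the unstranded column was used, without the lines that name no gene (23.0 to 29.7% of pairs). Of 55359 gene identifiers 94.1% had a symbol in GENCODE M21, which is on GRCm38. Counts were scaled by TMM and tested with edgeR 4.0.16 (filterByExpr, minimum count 10, total 15; robust quasi-likelihood fit; Benjamini-Hochberg adjustment) in R 4.3.3. A gene was called at an adjusted p under 0.05 and at least 1.5-fold. The pooled model held treatment and genotype label, and label and time differences used a mean per group. CPM values were scaled over all libraries of the time course. Replicates were numbered in accession order, which was not taken as a pairing, and no 2 libraries were identical. DESeq2 1.42.0 and sva 3.50.0 served as alternatives. Counting intervals and floors cover counting error only. All called genes except predicted or clone transcripts were named, lists were described by counts and medians with AHR targets always named, and members and lists were chosen with earlier results of these data known. Some list members are not reported here by name.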

Additional observations from a re-analysis of the deposited data

Results flagged for a closer look

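Over 37 named genes in 4 groups of 4 libraries, 12 sets of 4, 8.8% of those in which a library reached 10 counts, held a library whose gap to the nearest of the others exceeded Dixon's 95% critical share of the range; chance flags about 1 in 20. Among WT vehicle libraries, replicate 2 stood high for Cyp1a1 at 18.1 CPM (others at most 1.06) and low for Gas1 at 0.378 CPM (others at least 1.06). In the same group replicate 4 stood high for Fam129b at 11.2 CPM and low for Ugdh at 112.7 CPM. Among WT TCDD libraries, replicate 2 stood high for Pkm at 97.4 CPM (others at most 33.5), replicate 3 high for Lekr1 at 1.46 CPM and replicate 1 low for Gsta1 at 88.8 CPM. Among PkmΔDRE vehicle libraries, replicate 2 stood low for Pik3ap1 at 53.4 CPM and replicate 1 high for Fbxw9 at 32.6 CPM. Among PkmΔDRE TCDD libraries, replicate 1 stood low for Lrp4 at 15.03 CPM, and replicate 2 low for Insl6 at 0.920 CPM and high for Ugt1a6a at 4.71 CPM (others at most 1.18). No cause of these values was tested.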

How the results depend on the processing

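All calls of the pooled comparison were higher in TCDD libraries in the main model and under RLE scaling (32 calls), without a filter on low counts (36) and without the label in the model (24). The count moved to 89 (78 higher, 11 lower) after adjusting for each library's pairs outside genes, 72 with DESeq2, 81 (70 higher, 11 lower) with 1 surrogate variable and 49 with a replicate block. Within label WT it moved from 6 to 23, 30 and 20 with that adjustment, DESeq2 and the replicate block. Within label PkmΔDRE it moved from 6 to 16 without the filter, and to 36, 52 and 43 with the adjustment, DESeq2 and the replicate block. There it was 3 without PkmΔDRE TCDD replicates 1 and 3, and 3 in a fit of the label's 8 libraries alone, both chosen after seeing the data. The 12 h against 8 h count moved from 1 to 0, 2 and 2 with the adjustment, DESeq2 and the block. The block used the order of libraries in a group, which the labels do not make a pairing: the correlation of same-order deviations ran from -0.083 to 0.721 and exceeded 0.1 in 5 of 8 pairs. In label WT the share of unmapped pairs had the same order of replicates in both treatments, from 11.06 and 10.98% in replicate 2 to 5.83 and 5.85% in replicate 3. With the block 25 of the 28 named genes kept the call, and Insl6, Col9a2 and Lefty1 lost it. Leaving out each library gave 18 to 29 pooled calls, 18 each without PkmΔDRE vehicle replicate 1 or 4, 4 to 8 in label WT, 2 to 327 in label PkmΔDRE, the highest without PkmΔDRE TCDD replicate 2, and 0 to 1529 for 12 h against 8 h, again without that replicate. The lowest value in label PkmΔDRE, 2, came without any 1 of the PkmΔDRE vehicle replicates or without PkmΔDRE TCDD replicate 3. Both remaining differences, between labels and against 24 h, gave 0 calls in each of these fits. Of 43 genes followed, 911 values kept their side of the threshold, 27 gained a call, 1 changed direction and the rest lost a call. Tiparp, Ahrr and Ugt1a6a each gained it in 4 or 5 of 9 settings besides fits without 1 library. Cbr3, Gstm2, Nfe2l2 and Pkm also gained it, and stayed uncalled in 5, 6, 7 and 8 of the 9 settings. The value that changed direction was Ldha, at -0.08 without PkmΔDRE TCDD replicates 1 and 3. Fam129b lost its call without PkmΔDRE vehicle replicate 1 or 4, Unc5b without the filter or label, and Gsdme and Nqo1 without the label. The cause of these shifts was not tested. Depth limits Cyp1b1, Ugt1a7c, Col9a2 and Insl6, whose vehicle counts were at or near 0.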
